A study of Mus musculus with 11 samples.

Results

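The 11 RNA-seq libraries, labelled as cerebellar hemisphere, were compared by the state of Nfasc, the gene of neurofascin. The 6 Nfasc-targeted libraries came from NFKO (n = 3) and DKO (n = 3) mice, and the 5 Nfasc-intact libraries came from control (n = 3) and AnkGKO (n = 2) mice, so that all 11 libraries of the series were used. Members were chosen by genotype label alone. NFKO mice are Pcp2-Cre;NfascFx/Fx, AnkGKO mice are Pcp2-Cre;AnkGFx/Fx, and DKO mice carry Pcp2-Cre with both pairs of floxed alleles. The series text gives the control mice as NfascFx/Fx;AnkGFx/Fx with no Cre. All mice were untreated littermates of mixed sex, and the labels give postnatal day 30 in one place and day 32 in another. The strain is written as C57BL/6J in one label and as a mixed C57BL/6J;129 background in another. The AnkGKO label names no floxed Nfasc allele and the NFKO label no floxed Ank3 allele, whereas the series text gives both to the controls. The labels do not say that these alleles were absent. By the study's methods, the mutant lines came from crosses of a double floxed line with Pcp2-Cre. The study's methods also write of single or double floxed controls, so not every control need carry both. Pcp2-Cre is known to act mainly in Purkinje cells, and the libraries were made from bulk tissue.

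Neurofascin is a cell adhesion protein of the L1 family. Its neuronal form, NF186, stands in the membrane of the axon initial segment and of nodes of Ranvier, bound on the inside to Ankyrin G, which is encoded by Ank3 and anchors sodium channels and βIV spectrin. Its glial form, NF155, holds the paranodal loops of myelinating cells to the axon. On Purkinje cells, NF186 helps basket cell axons to gather into the pinceau, a brush of inhibitory terminals around the axon initial segment.

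The comparison can be read in 2 arms that share no library. In the arm with Ank3 intact, NFKO was set against control. In the arm with Ank3 deleted, DKO was set against AnkGKO. A change that goes with Nfasc whatever the state of Ank3 should be seen in both arms. The averaged comparison asks only whether the mean of the 2 arms differs from 0, so a change in 1 arm can pass it. The averaged contrast took the mean of NFKO and DKO minus the mean of control and AnkGKO with all 4 genotypes fitted together. Calls required a Benjamini-Hochberg adjusted p under 0.05 (edgeR, quasi-likelihood) together with a log2 fold change of 0.6 or more in either direction. Values are CPM, counts scaled to a fixed library total after TMM correction, and 17557 of 22609 listed genes had the 10 counts in total needed for a test. The libraries held 38890851 to 55822361 counts on genes, at which 3 counts, taken as the floor, equal 0.0546 to 0.0780 CPM. Floors cover counting error only.

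Several libraries stood apart from their labels. Pcp2, a Purkinje cell gene, reached 26.3 CPM in control replicate 1 and 28.3 CPM in NFKO replicate 1, but lay at 2.14 CPM or less in the other 9 libraries. The summed level of 8 granule cell genes ran from 143 to 832 CPM, and Gabra6, a granule cell receptor subunit, was at 84.2 CPM in its highest library and 0.0186 CPM in its lowest. A list of 12 caudal Hox genes, which mark the spinal cord, summed to 395 to 615 CPM in all libraries, so the labelled cerebellar tissue was not borne out by its own markers in most of them. The sexes were also uneven. Xist was at 459 to 598 CPM in control replicates 1 and 2 and DKO replicates 2 and 3, while the NFKO and AnkGKO libraries had 1.39 CPM or less with the Y-linked Ddx3y at 89.6 to 103 CPM. Control replicate 1 held Xist at 464 CPM beside Ddx3y at 7.20 CPM, and DKO replicate 1 held Xist at 28.4 CPM beside Ddx3y at 108 CPM.

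Nfasc itself had a lower mean in the targeted libraries, by an amount that did not pass the threshold. It lay at 718, 661 and 690 CPM in control, at 701, 622 and 635 CPM in NFKO, at 717 and 953 CPM in AnkGKO and at 559, 606 and 603 CPM in DKO. The NFKO values overlapped those of control, the DKO values lay below both AnkGKO values, and AnkGKO replicate 2 was the highest library of all. Over both arms the log2 fold change was -0.29 (standard error 0.071, 95% interval -0.45 to -0.14, edgeR Benjamini-Hochberg adjusted p = 0.306). The same fit gave -0.079 in NFKO against control (unadjusted p = 0.420) and -0.50 in DKO against AnkGKO (unadjusted p = 0.00046, adjusted p = 0.137), so neither arm passed the threshold. Reads on Nfasc from cells other than Purkinje cells, and from parts of the gene outside the floxed exons, count here too. In bulk RNA, fewer cells of a type and less RNA per cell cannot be told apart. Ank3, the gene of Ankyrin G, was close between targeted and intact libraries in each arm. It was at 353 to 375 CPM in control and 385 to 407 CPM in NFKO, and at 156 and 200 CPM in AnkGKO against 160 to 185 CPM in DKO. Ank3 was thus lower in all 5 libraries with the Ank3 deletion, in which Pcp2 lay at 0.103 to 0.374 CPM. Its log2 fold change was 0.036 (95% interval -0.11 to 0.18), a value whose sign changed in 2 of the alternatives tried.

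**Figure D1:**
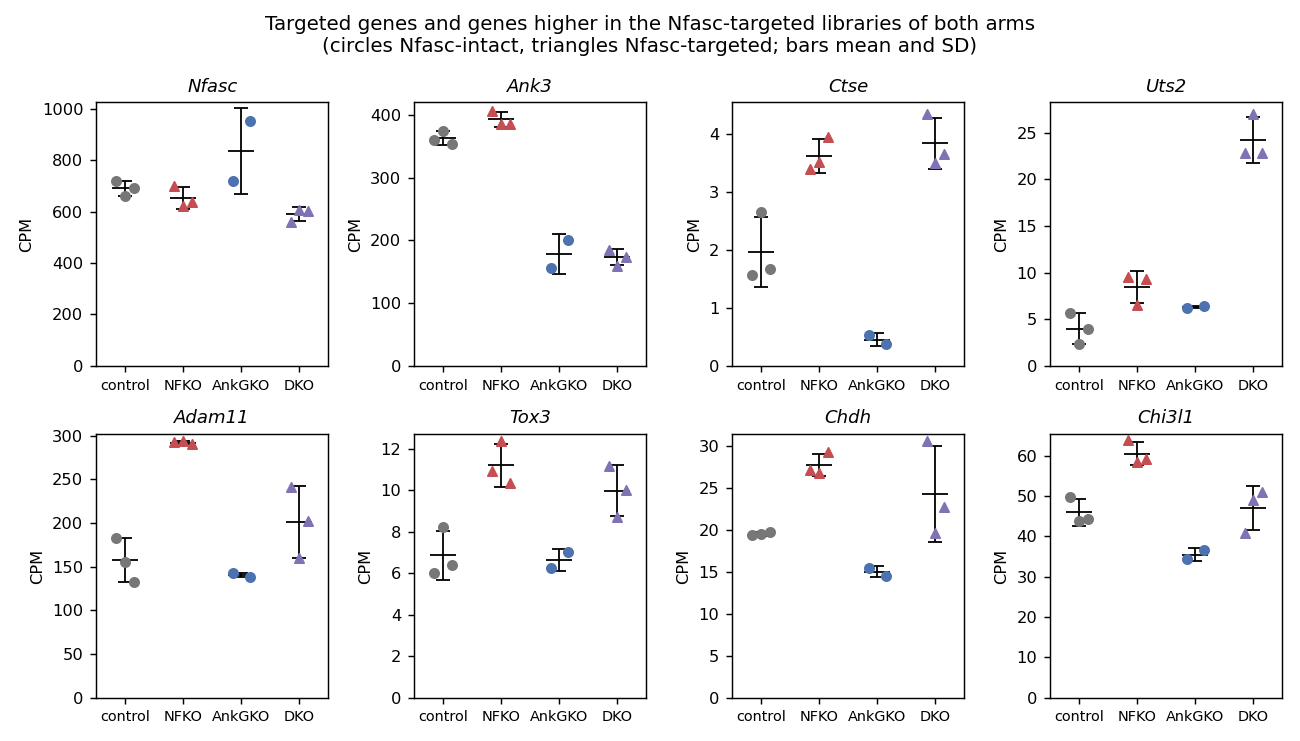
Expression in CPM (vertical axes, from 0) of Nfasc, Ank3 and 6 genes higher in the Nfasc-targeted libraries of both arms, for each library by genotype. Circles are Nfasc-intact and triangles Nfasc-targeted libraries, and the bars show the mean and SD of each genotype. Nfasc overlaps between control and NFKO, Ank3 is at 200 CPM or less in AnkGKO and DKO, and Ctse, Uts2 and Tox3 separate the 6 targeted from the 5 intact libraries.

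Over both arms, 18 of 17557 genes were called (0.103%), 10 higher (0.057%) and 8 lower (0.0456%). At an adjusted p under 0.05 without a fold limit there were 29 genes (0.165%), and 993 genes had an unadjusted p under 0.05 (5.66%). The call depended on how the libraries were pooled. When the 6 libraries were set against the 5 as 2 plain groups, edgeR called 0 genes, the smallest adjusted p was 0.694 and 785 genes had an unadjusted p under 0.05. A model with 1 term for Nfasc and 1 for Ank3 also called 0 genes (smallest edgeR Benjamini-Hochberg adjusted p = 0.258, 883 genes at an unadjusted p under 0.05). DESeq2 on the 4 genotypes called 59, among them all 18. A block for the replicate number in the 4-genotype model kept 9 of the 18 called (AA465934, Adam11, Ctse, Cwc22, Lyrm7, Mcm6, Tpm3, Uts2 and Wdfy1). Of the 18 genes, only Ctse, Cwc22, Lyrm7 and Tpm3 were called in each of the 11 fits that left out 1 library.

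Most of the 18 genes moved in 1 arm. At an unadjusted p under 0.05, 5 of them moved in the same direction in both arms (Ctse, Uts2, Adam11, Tox3 and Kpna2), 9 moved in NFKO against control only and 4 in DKO against AnkGKO only. For 11 of the 18 the difference between the arms had itself an adjusted p under 0.05. The 6 targeted and 5 intact libraries did not overlap for 4 of the 18, Ctse, Uts2, Ahcy and Tox3. Among all genes tested, 68 (0.387%) separated the 6 libraries from the 5.

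Ctse, Uts2, Adam11 and Tox3 were the called genes that were higher at an unadjusted p under 0.05 in both arms. Ctse encodes cathepsin E, an aspartic protease of endosomes. It was at 1.56, 2.66 and 1.67 CPM in control, 3.39, 3.51 and 3.94 CPM in NFKO, 0.536 and 0.369 CPM in AnkGKO and 4.34, 3.50 and 3.66 CPM in DKO. Every targeted library exceeded every intact library, and the intact libraries themselves fell into a higher control and a lower AnkGKO pair. The log2 fold change over both arms was 1.97 (standard error 0.18, edgeR Benjamini-Hochberg adjusted p = 0.000718), made of 0.87 with Ank3 intact and 3.07 with Ank3 deleted. The arms differed by 2.20 on the log2 scale (edgeR adjusted p = 0.0165). Ctse lies on chromosome 1 of GRCm39 from 131566009 to 131603243, beside Nfasc, and its position is taken up further on.

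Uts2 encodes urotensin II, a small peptide made by motor neurons of the brainstem and spinal cord. With Ank3 intact, the controls had 5.67, 2.36 and 3.98 CPM, and NFKO had 9.49, 6.53 and 9.36 CPM. With Ank3 deleted it was at 6.23 and 6.41 CPM in AnkGKO and at 22.8, 27.0 and 22.8 CPM in DKO. All 6 targeted libraries lay above all 5 intact ones, by a narrow gap between NFKO replicate 2 and AnkGKO replicate 2 and a wide one in DKO. The log2 fold change was 1.51 (standard error 0.20, edgeR Benjamini-Hochberg adjusted p = 0.0173), with 1.09 and 1.94 in the 2 arms. Its call was lost in 7 of the 11 fits without 1 library. Other motor neuron genes are given with their list below.

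Adam11 encodes an ADAM protein without protease activity that basket cells need to place Kv1 potassium channels in the pinceau. Its control values were 183, 156 and 133 CPM and its NFKO values 292, 293 and 291 CPM. The AnkGKO libraries had 142 and 139 CPM, while those of DKO had 241, 160 and 202 CPM. The NFKO libraries were nearly equal and well above control, whereas DKO replicate 2 lay within the control range. Most libraries held little of the cerebellar markers, and which cells gave the Adam11 counts was not tested. The log2 fold change over both arms was 0.70 (standard error 0.11, edgeR Benjamini-Hochberg adjusted p = 0.0391), with 0.89 and 0.52 in the arms, and 8 of the 11 fits without 1 library lost the call.

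Tox3, a nuclear protein with an HMG box, had the most even shift of the called genes. The control libraries had 6.00, 8.21 and 6.40 CPM and those of AnkGKO 6.25 and 7.02 CPM, rising to 10.9, 12.4 and 10.3 CPM in NFKO and 11.2, 8.73 and 10.03 CPM in DKO. No targeted library overlapped an intact one. The log2 fold change was 0.65 over both arms (standard error 0.11, edgeR Benjamini-Hochberg adjusted p = 0.0443), 0.70 with Ank3 intact and 0.59 with Ank3 deleted. It was called in neither arm alone, it had the smallest p of all genes when the libraries were pooled as 2 plain groups, and 9 of the 11 fits without 1 library lost the call.

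Chdh and Chi3l1 passed the adjusted p but not the fold limit, and were also higher in both arms. Both lost the adjusted p with the replicate number as a block and in most fits without 1 library. Chdh encodes choline dehydrogenase, the mitochondrial enzyme that starts the oxidation of choline to betaine. It was at 19.3, 19.4 and 19.7 CPM in control, 27.1, 26.7 and 29.2 CPM in NFKO, 15.5 and 14.5 CPM in AnkGKO and 30.5, 19.5 and 22.6 CPM in DKO. Only DKO replicate 2 fell within the range of the intact libraries. Its log2 fold change of 0.60 missed the limit of 0.6 before rounding (standard error 0.099, edgeR Benjamini-Hochberg adjusted p = 0.0409). Chi3l1, a chitinase-like protein secreted by reactive astrocytes, was at 43.9 to 49.8 CPM in control, 58.6 to 63.8 CPM in NFKO, 34.3 and 36.6 CPM in AnkGKO and 40.8 to 51.0 CPM in DKO. Within each arm the targeted libraries lay above the intact ones, with log2 fold changes of 0.40 and 0.41, although the DKO libraries overlapped the control libraries (0.40 over both arms, standard error 0.067, edgeR adjusted p = 0.0409). The gene lies 1.53 Mb from Nfasc.

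The sequence upstream of the start site is shown for Uts2, Tox3 and Chdh, whose levels moved the same way in both arms, so that their start regions can be set side by side. Each is the 150 bases before the start that RefSeq annotates in GRCm38.p6, read 5′ to 3′ on the gene's own strand, at chr4:150996947-150997096 (plus strand) for Uts2, chr8:90348253-90348402 (minus strand) for Tox3 and chr14:30008850-30008999 (plus strand) for Chdh. Capitals mark matches, on either strand, to 3 short motifs. For the GC box the letters searched were GGGCGG, while for the box named after its letters they were CCAAT and for the remaining core promoter motif, the TATA box, they were TATAAA.
Uts2: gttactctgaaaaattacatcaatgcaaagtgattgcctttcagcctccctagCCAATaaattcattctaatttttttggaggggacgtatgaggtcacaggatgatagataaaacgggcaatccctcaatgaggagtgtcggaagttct
Tox3: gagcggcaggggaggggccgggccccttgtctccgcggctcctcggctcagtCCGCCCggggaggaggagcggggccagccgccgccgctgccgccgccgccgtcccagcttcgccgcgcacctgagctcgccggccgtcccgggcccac
Chdh: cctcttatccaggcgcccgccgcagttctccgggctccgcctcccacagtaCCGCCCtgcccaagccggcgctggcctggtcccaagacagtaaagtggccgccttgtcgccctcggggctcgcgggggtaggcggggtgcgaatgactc
Uts2 held a CCAAT box and no TATA or GC box, Tox3 and Chdh each held a GC box on the opposite strand, and only Tox3 held a match to CANNTG (E-box, not capitalized). Among 27025 promoter windows of this length, 8.08% held the TATA letters, 25.3% the CCAAT letters, 29% the GC box letters and 47.3% the E-box letters. The windows of Tox3 and Chdh were 82% and 70.7% G or C, that of Uts2 40.7%, and the median of all windows was 54%. A match is a description of the letters and not a binding site.

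Beyond the adjusted threshold, 39 genes (0.222%) had an unadjusted p under 0.05 in both arms with the same direction, 24 higher (0.137%) and 15 lower (0.0854%), and 205 (1.17%) had it in opposite directions. Of the 39, 19 separated the 6 targeted libraries from the 5 intact ones (0.387% of all genes did). The 39 were picked by p in these same libraries. At this p, 4.48% of all genes were higher and 3.22% lower in NFKO against control. In DKO against AnkGKO these shares were 4.01% and 4.47%. Whether the arms shared more genes than unrelated arms would was not tested. Ly86, which encodes an innate immune cell protein that binds the Toll-like receptor relative RP105, was at 7.77 to 10.99 CPM in control, 12.7 to 13.8 CPM in NFKO, 9.06 and 7.95 CPM in AnkGKO and 9.85 to 13.6 CPM in DKO. Heatr3, a HEAT repeat protein of ribosome assembly, was at 35.8 to 42.3 CPM in the intact and 43.1 to 48.2 CPM in the targeted libraries, without overlap. Neither passed over both arms (edgeR Benjamini-Hochberg adjusted p = 0.242 and 0.168).

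Among the genes lower at an unadjusted p under 0.05 in both arms, Kpna2 was the only one called. Kpna2 encodes an importin that carries cargo into the nucleus. It was at 0.866 to 1.14 CPM in control, 0.0963 to 0.191 CPM in NFKO, 1.11 and 1.09 CPM in AnkGKO and 0.510 to 0.887 CPM in DKO. The NFKO libraries were near the counting floor, and DKO replicate 2 lay inside the control range. The log2 fold change was -1.74 (standard error 0.23, edgeR Benjamini-Hochberg adjusted p = 0.0123), with -2.74 and -0.74 in the arms. Of its 100-base words, 36.1% occur in another gene, so its count is uncertain.

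The other named genes that were lower at an unadjusted p under 0.05 in both arms missed the adjusted threshold over both. Pkp4, plakophilin 4 of cell junctions, was at 499 to 551 CPM in the intact and 446 to 489 CPM in the targeted libraries. Pdgfb, a growth factor that recruits pericytes to vessels, was at 14.5 to 17.1 CPM against 10.7 to 13.4 CPM. Both genes separated the groups, by log2 differences of -0.17 and -0.34 (edgeR Benjamini-Hochberg adjusted p = 0.340 and 0.328). Chst11, a sulfotransferase that makes the chondroitin 4-sulfate of perineuronal matrix, was at 68.4 to 76.6 CPM in the intact and 58.2 to 69.6 CPM in the targeted libraries, which overlapped. The genes AU021034, 4933436C20Rik and Ccdc146, the last a coiled-coil protein of centrioles, separated the groups at levels under 3.5 CPM, and Gm10714 lay under 0.6 CPM in every library. Fkbp6 had at most 9 counts in any library, and no fold is given.

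**Figure D2:**
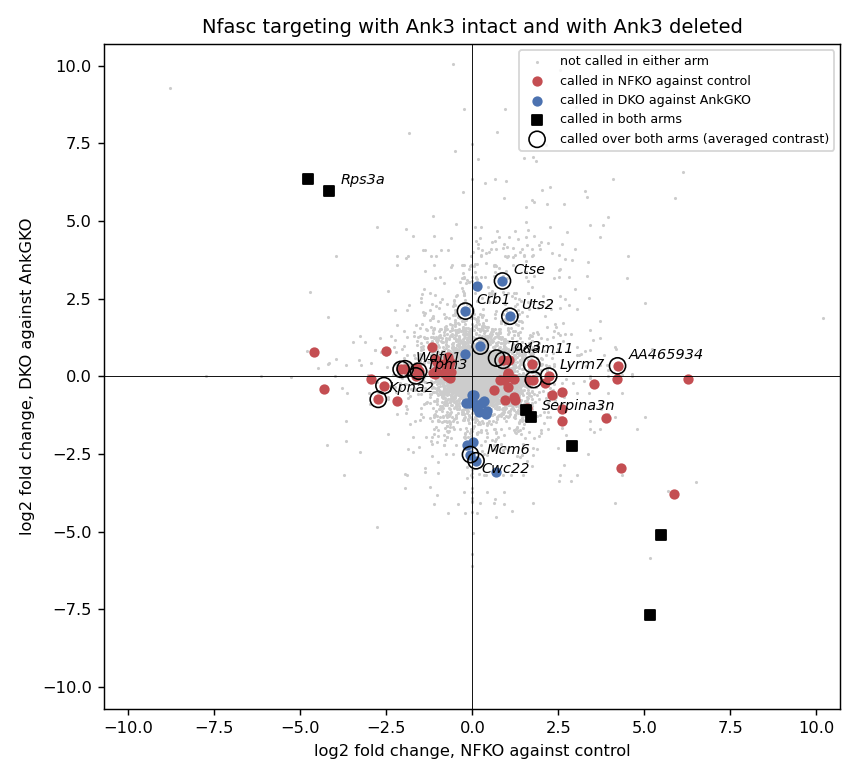
Log2 fold change of every tested gene in NFKO against control (horizontal axis) and in DKO against AnkGKO (vertical axis). Red and blue points were called in 1 arm, the 7 black squares in both, and circles mark the 18 genes called over both arms. Most called genes lie along the axes or in the quadrants of opposite sign, and no gene called in both arms has the same sign in both.

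Each arm was tested alone and then read in the other, which shares none of its libraries. NFKO against control called 64 genes (0.365%), 35 higher (0.199%) and 29 lower (0.165%), with 7.69% of all genes at an unadjusted p under 0.05. DKO against AnkGKO called 30 (0.171%), 8 higher (0.0456%) and 22 lower (0.125%), with 8.48% at an unadjusted p under 0.05. Of the 35 higher in NFKO, 7 had a log2 fold change above 0 in the other arm, 2 reached an unadjusted p under 0.05 there in the same direction (share of all genes 4.01%), and 15 reached it in the opposite direction (4.47%). The 29 lower genes gave 6, 1 and 10 in the same order, with shares of all genes of 4.47% for the same and 4.01% for the opposite direction. Of the 8 genes higher in DKO, 4 had the same sign in NFKO against control and 2 also an unadjusted p under 0.05 (share of all genes 4.48%), with 3 in the opposite direction (3.22%). For the 22 lower genes these counts were 5, 0 and 9, with shares of 3.22% for the same and 4.48% for the opposite direction. The difference between the arms called 93 genes (0.53%). Over all tested genes the log2 fold changes of the arms had Pearson's r of 0.022 and Spearman's rho of -0.11, a description across genes that are not independent.

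Some of the calls carried by NFKO were nearly equal across its 3 libraries, such as Tpm3 and Lyrm7, and others varied, such as Hddc3. Lyrm7, an assembly factor of mitochondrial complex III, was at 3.38 to 3.67 CPM in control and 15.5 to 16.99 CPM in NFKO, but at 4.48 and 3.69 CPM in AnkGKO and 3.39 to 4.88 CPM in DKO. Tpm3, a tropomyosin of the actin cytoskeleton, was at 25.1 to 27.5 CPM in control and 8.44 to 8.59 CPM in NFKO, with 26.1 and 27.1 CPM in AnkGKO and 23.8 to 29.7 CPM in DKO. Hddc3, a hydrolase, was at 8.64 to 10.5 CPM in control and 24.7 to 39.9 CPM in NFKO, and at 8.24 to 10.3 CPM in the other 5 libraries. In each of these genes the 3 NFKO libraries stood alone. The log2 fold changes in NFKO against control were 2.22, -1.64 and 1.77, and those in DKO against AnkGKO 0.0093, 0.016 and -0.10. Over both arms they were 1.11, -0.81 and 0.83 (edgeR Benjamini-Hochberg adjusted p = 0.000939, 0.000304 and 0.0166), values that average an arm with a change and an arm without a call.

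The same form was found in Wdfy1, an endosomal protein with a FYVE domain, which was at 69.5 to 74.9 CPM in control, 16.1 to 20.4 CPM in NFKO, 47.5 and 73.4 CPM in AnkGKO and 66.3 to 74.8 CPM in DKO. Pkmyt1, a kinase that holds back mitosis, was at 7.47 to 8.03 CPM in control and 2.20 to 2.84 CPM in NFKO, and at 6.40 to 8.55 CPM in the other 5 libraries. Gdf9, a growth factor known from oocytes, and Rps2, a ribosomal protein with 12.5% of its 100-base words in other genes, were likewise lower in NFKO, by log2 fold changes of -2.57 and -2.07 in that arm. AA465934 and 9930021D14Rik were higher there, by 4.22 and 1.73 on the log2 scale, at levels under 8 CPM. These 6 genes had no call in DKO against AnkGKO.

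The calls carried by DKO against AnkGKO rested on the 2 AnkGKO libraries. Cwc22, a splicing factor that loads the exon junction complex, was at 9.31 to 9.91 CPM in control, 8.71 to 9.81 CPM in NFKO and 8.99 to 9.99 CPM in DKO, but at 51.0 and 56.7 CPM in AnkGKO. Mcm6, a subunit of the replicative helicase, was at 9.16 and 7.95 CPM in AnkGKO and at 1.04 to 1.95 CPM in the other 9 libraries. Crb1, a Crumbs cell polarity protein, was at 0.454 and 0.478 CPM in AnkGKO and at 1.58 to 2.31 CPM elsewhere. The 2 AnkGKO libraries stood alone in all 3 genes, and DKO lay with control and NFKO. Their log2 fold changes in this arm were -2.52, -2.72 and 2.10, against -0.056, 0.11 and -0.20 in NFKO against control. Ahcy, the hydrolase of S-adenosylhomocysteine, was at 2.37 and 2.89 CPM in AnkGKO, 4.14 to 4.58 CPM in control, 4.90 to 5.53 CPM in NFKO and 4.82 to 5.37 CPM in DKO, so that targeted and intact libraries separated, with 0.23 and 0.98 in the arms. However, 51% of the 100-base words of Ahcy occur in another gene and its count is uncertain.

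**Figure D3:**
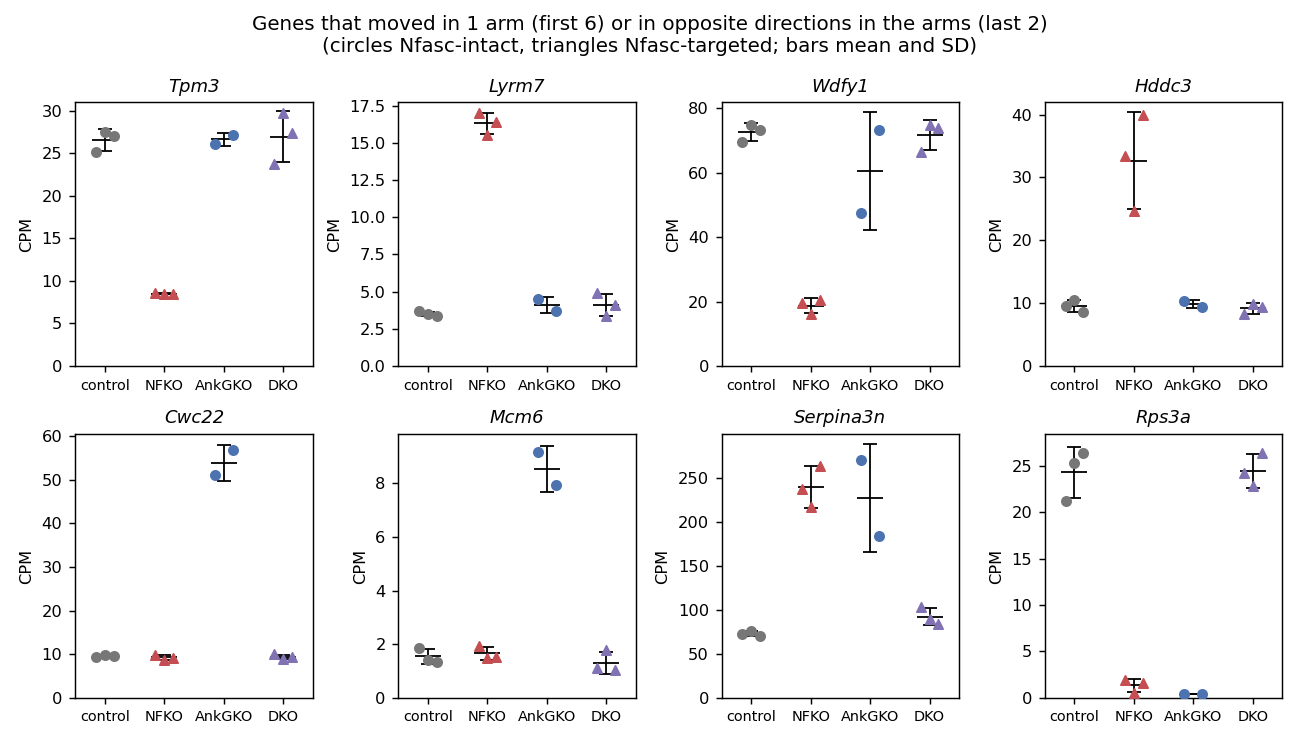
Expression in CPM (vertical axes, from 0) of 8 genes in each library by genotype, with circles for Nfasc-intact and triangles for Nfasc-targeted libraries and bars for the mean and SD. Tpm3, Lyrm7, Wdfy1 and Hddc3 stand apart in NFKO, Cwc22 and Mcm6 in AnkGKO, and Serpina3n and Rps3a in both NFKO and AnkGKO.

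Among genes that passed the adjusted p without the fold limit, Thy1 and Cadps stood out by their level. Thy1 encodes a surface glycoprotein of neurons, and Cadps a priming factor for dense-core vesicles. Thy1 was at 689 to 730 CPM in control and at 1371 to 1901 CPM in all other 8 libraries. Cadps was at 494 to 542 CPM in control and at 232 to 292 CPM in the other 8. Both thus separated control from the 3 genotypes that carry Pcp2-Cre, whatever the state of Nfasc. Their log2 fold changes were 1.20 and -1.09 in NFKO against control and -0.071 and 0.073 in DKO against AnkGKO, and the 0.57 and -0.51 over both arms (edgeR Benjamini-Hochberg adjusted p = 0.00885 and 0.0123) came from the control libraries. In that arm the state of Nfasc and the presence of Cre cannot be told apart.

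Glo1, the glyoxalase that clears methylglyoxal, was at 67.6 to 75.3 CPM in control and 137 to 155 CPM in NFKO, and at 72.5 to 77.7 CPM in the other 5 libraries. Rnps1, a splicing factor, Alpk1, a kinase that senses bacterial sugars, and Tmem144 likewise moved in NFKO alone, by log2 fold changes of -1.06, -1.16 and 1.02. Nav1, which guides growing axons, A930005H10Rik and Pigy, of GPI anchor synthesis, moved in DKO against AnkGKO alone, by -0.76, -0.86 and -0.61, with the AnkGKO libraries the highest in each. Among the genes described here as moving in 1 arm, the difference between the arms did not pass the threshold for 9930021D14Rik, Gdf9, Ahcy and A930005H10Rik (edgeR Benjamini-Hochberg adjusted p = 0.171, 0.0582, 0.171 and 0.104).

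A further 7 genes were called in both arms in opposite directions (Apoa2, Dlk2, Gm5148, H2-Bl, Rps3a, Serpina3f and Serpina3n), so that NFKO resembled AnkGKO and DKO resembled control. Serpina3n, a secreted protease inhibitor of reactive astrocytes, was at 73.0, 75.7 and 70.4 CPM in control, 237, 217 and 264 CPM in NFKO, 270 and 184 CPM in AnkGKO and 103, 89.7 and 84.2 CPM in DKO. Rps3a, a ribosomal protein, was at 21.2 to 26.4 CPM in control and 22.8 to 26.4 CPM in DKO, but at 0.559 to 1.91 CPM in NFKO and 0.371 and 0.413 CPM in AnkGKO. The 2 pairs of genotypes did not overlap in either gene. Their log2 fold changes were 1.71 and -1.30 for Serpina3n and -4.16 and 5.96 for Rps3a in the 2 arms. H2-Bl, a class I histocompatibility gene, was at 1.73 to 2.74 CPM in control, 14 to 21.2 CPM in NFKO, 11.1 and 11.2 CPM in AnkGKO and 1.56 to 2.92 CPM in DKO. Rps3a shares 17.1% of its 100-base words with other genes. The NFKO and AnkGKO libraries were also those low in Xist, together with control replicate 3. With Xist as a covariate, all 3 genes stayed called in NFKO against control, but in DKO against AnkGKO only Rps3a did (edgeR Benjamini-Hochberg adjusted p = 0.0266), and Serpina3n and H2-Bl did not (0.132 and 0.187).

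Genes near Nfasc were counted because the arms may differ in which mice carried the floxed allele. Nfasc lies on the minus strand of chromosome 1 of GRCm39 from 132492428 to 132669564. Within 20 Mb of it 180 genes were tested, and 3 were called over both arms (Crb1, Ctse and Mcm6, 1.67%), against 0.106% of 16962 genes with a position. NFKO against control called 0 of the 180 by edgeR, with 11 at an unadjusted p under 0.05 (6.11%, against 7.62% of all positioned genes). DKO against AnkGKO called 5, Crb1, Ctse, Mcm6, Nav1 and Tnni1, a troponin of slow muscle (2.78%, against 0.165%), with 31 at an unadjusted p under 0.05 (17.2%, against 8.51%). Of the 18 genes called over both arms, 12 remained when genes within 20 Mb of Nfasc or of Ank3 and those on chromosome 17 were left out. The AnkGKO label names no floxed Nfasc allele, but does not say that none was present. If none was, the deletion of Nfasc and the floxed chromosome around it cannot be told apart in DKO against AnkGKO. In NFKO against control the series text gives both genotypes as floxed at Nfasc, which the methods leave less certain for each control.

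**Figure D4:**
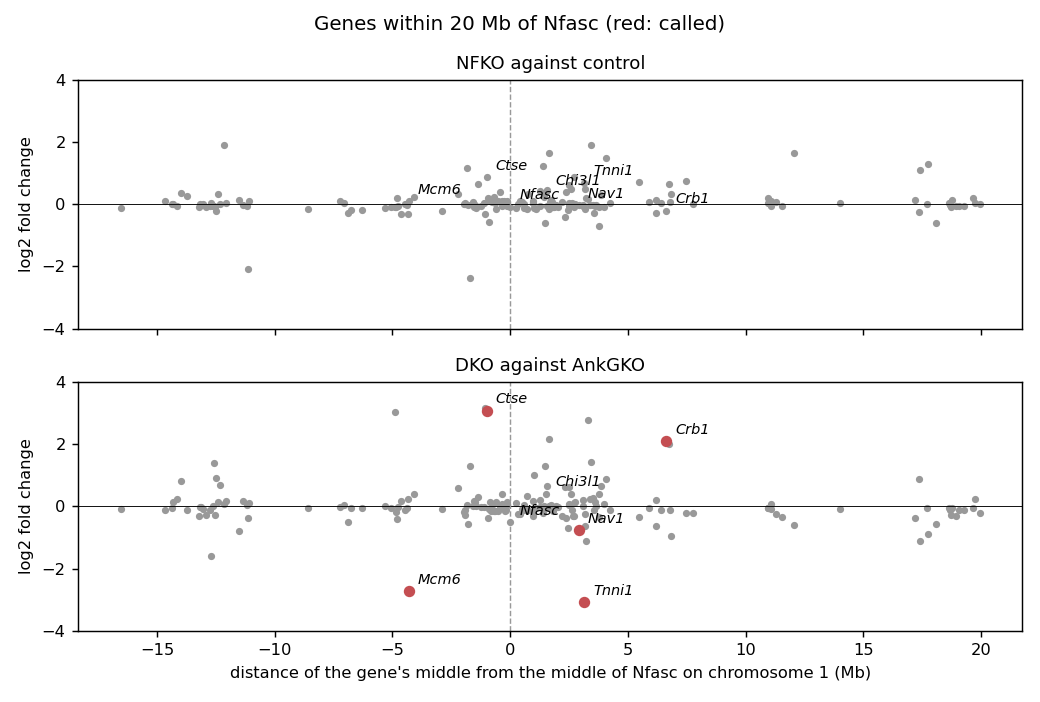
Log2 fold change of the 180 tested genes within 20 Mb of Nfasc against their distance from it in Mb, in NFKO against control (top) and DKO against AnkGKO (bottom), with called genes in red. The top panel has 0 called genes, and the bottom panel has 5, Mcm6, Ctse, Nav1, Tnni1 and Crb1.

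Other regions were not alike. Within 20 Mb of Ank3, 377 genes were tested and 0 were called in the averaged contrast or in either arm by edgeR. At an unadjusted p under 0.05 there were 11, 18 and 28 (2.92%, 4.77% and 7.43%). The shares of all positioned genes were 5.65%, 7.62% and 8.51%. Chromosome 17 held 820 tested genes, of which NFKO against control called 22 (2.68%, against 0.36% of all positioned genes), among them Glo1, Pkmyt1, Rnps1 and Rps2. DKO against AnkGKO called 1 gene there, Dlk2 (0.122%, against 0.165%), and the averaged contrast 3 (0.366%, against 0.106%).

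The proteins that share the axon initial segment with NF186 showed no called gene. Of 18 measured genes of its scaffold and channels, 8 were above and 10 below 0 over both arms, with a median log2 fold change of -0.015 beside 0.0013 for all genes tested, of which 50.6% lay above 0. None had an unadjusted p under 0.05 over both arms. At the low level of Pcp2 in most libraries, these values say little about Purkinje cell axons. The values were 0.0031 for Spnb4, the symbol used here for βIV spectrin, -0.024 for the sodium channel Scn8a, -0.0058 for Scn1a and -0.099 for Nrcam. In NFKO against control, Trim46, which bundles microtubules at the axon initial segment, had -0.19 (unadjusted p = 0.00741). In DKO against AnkGKO, Ndel1, a dynein regulator at that site, had 0.19 (unadjusted p = 0.0465).

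Partners of neurofascin at nodes and paranodes were mostly on the lower side. Of 16 genes of the L1 family, nodal matrix and paranode, 13 were below 0, with a median of -0.075. Cntnap1 and Cntn1, which form the paranodal complex that NF155 binds, had -0.077 and -0.043, and the matrix genes Bcan, Vcan and Tnr had -0.072, -0.091 and -0.24. Gldn, which gathers neurofascin at peripheral nodes, was the only member at an unadjusted p under 0.05, at 2.76 to 3.74 CPM in control, 5.66 to 6.59 CPM in NFKO, 4.60 and 2.63 CPM in AnkGKO and 3.53 to 4.99 CPM in DKO (log2 fold change 0.61, unadjusted p = 0.00282). Of 10 peripheral myelin and Schwann cell genes 8 were above 0 over both arms, none at an unadjusted p under 0.05, with medians of 0.93 in NFKO against control and -0.10 in DKO against AnkGKO, and their sum was 382 to 620 CPM in the intact and 335 to 772 CPM in the targeted libraries. Their part in the value of Gldn was not tested.

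Genes of the basket cell pinceau and of GABA transmission were represented by 16 measured genes, 5 above and 11 below 0, with a median of -0.029. Adam11 was the only one with an unadjusted p under 0.05. Most libraries held little Pcp2 and few granule cell transcripts, so these values say little about basket cells. The Kv1 channel genes that Adam11 helps to place had log2 fold changes of 0.029 for Kcna1 and -0.12 for Kcna2. Gad1 and Gad2, which make GABA, had -0.10 and -0.19, and Slc32a1, which loads it into vesicles, had -0.067. Nrp1, a semaphorin receptor, had 0.36 in NFKO against control and -0.39 in DKO against AnkGKO, each at an unadjusted p under 0.05, and -0.017 over both.

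Postsynaptic genes lay mostly below 0 in both arms. Of 23 measured genes 22 lay below 0 over both arms, 19 in NFKO against control and 20 in DKO against AnkGKO, with medians of -0.082, -0.067 and -0.11. Gria1, Gria2 and Homer2 had an unadjusted p under 0.05 over both arms (2.88% of all genes did in this direction), and none passed the adjusted threshold. Gria1, an AMPA receptor subunit, was at 185, 183 and 168 CPM in control, 170, 155 and 127 CPM in NFKO, 181 and 161 CPM in AnkGKO and 149, 134 and 152 CPM in DKO. The DKO libraries lay below both AnkGKO libraries, while NFKO replicate 1 overlapped control. Its log2 fold change was -0.24 (standard error 0.075, edgeR Benjamini-Hochberg adjusted p = 0.581). Homer2, a scaffold of metabotropic glutamate receptors, had -0.25 (edgeR adjusted p = 0.470), mainly from -0.42 in DKO against AnkGKO. The summed level of the list was 3510 to 3667 CPM in the intact and 3073 to 3529 CPM in the targeted libraries, which overlapped.

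Synaptic vesicle genes did not share this form. Of 25 genes, 24 lay below 0 in NFKO against control but 11 in DKO against AnkGKO, with medians of -0.098 and 0.020 and -0.026 over both. Apart from Cadps, Rims1, a scaffold of the release site, was the only one with an unadjusted p under 0.05 over both arms (-0.20, unadjusted p = 0.0284). Of 24 Purkinje cell genes 16 were above 0, with a median of 0.025, and none had an unadjusted p under 0.05, which at the low level of Pcp2 in most libraries says little about these cells. Granule cell genes had a median of -0.044 over 8 genes.

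Motor neuron genes were all above 0 over both arms. The 9 genes had a median of 0.32 over both arms, 0.15 in NFKO against control (6 above 0) and 0.60 in DKO against AnkGKO (9 above 0). Besides Uts2, Calca, the gene of the peptide CGRP, had an unadjusted p under 0.05. It was at 38.6, 18.4 and 35.7 CPM in control, 72.1, 33.0 and 49.3 CPM in NFKO, 28.4 and 63.4 CPM in AnkGKO and 90.1, 165 and 102 CPM in DKO (log2 fold change 1.06, unadjusted p = 0.0170). Targeted and intact libraries overlapped, since NFKO replicate 2 lay below 2 controls and AnkGKO replicate 2 above 2 NFKO libraries, while DKO lay above all intact libraries. Chat, which makes acetylcholine and defines the class, had 0.060 (unadjusted p = 0.798), and the list summed to 239 to 665 CPM in the intact and 281 to 802 CPM in the targeted libraries. The part of motor neuron content in the value of Uts2 was not tested.

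Antigen presentation genes lay mostly above 0 in both arms. Of 15 measured genes 14 were above 0 over both arms, 12 in NFKO against control and 14 in DKO against AnkGKO, with medians of 0.26, 0.44 and 0.27. Over both arms 9 of the 15 were higher at an unadjusted p under 0.05 (2.77% of all genes were), and none passed the adjusted threshold. In NFKO against control 9 were higher at that p (4.48% of all genes were), with H2-Aa in place of H2-K1. In DKO against AnkGKO 0 were higher (4.01%) and 1, Nlrc5, was lower (4.47%) by edgeR. Of the 15 genes 11 lie on chromosome 17, where NFKO against control called a larger share of genes than elsewhere (2.68% against 0.25%). The part of position in these values was not tested. B2m, the shared light chain of class I molecules, was at 72.6, 85.4 and 68.5 CPM in control, 101, 118 and 88.1 CPM in NFKO, 87.2 and 85.0 CPM in AnkGKO and 86.2, 97.7 and 90.3 CPM in DKO. The NFKO libraries lay above all controls, and DKO replicate 1 lay between the AnkGKO libraries. Its log2 fold change was 0.26 (edgeR Benjamini-Hochberg adjusted p = 0.564). Other class I members at an unadjusted p under 0.05 were H2-K1 (0.22), H2-Gs10 (0.43), H2-Q6 (0.94) and Tap1 (0.24), the last the partner of Tap2, and their targeted and intact libraries overlapped. Tap2, of the peptide transporter, was the one member that separated the groups, at 16.1 to 17.6 CPM in the intact and 18.4 to 23.3 CPM in the targeted libraries (log2 fold change 0.20, edgeR adjusted p = 0.708).

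Class II genes had the larger folds. Cd74, the invariant chain, was at 5.30, 16.6 and 14.3 CPM in control, 39.0, 55.4 and 27.3 CPM in NFKO, 11.5 and 4.87 CPM in AnkGKO and 10.1, 13.6 and 7.24 CPM in DKO. NFKO stood above all other libraries, and DKO overlapped AnkGKO. H2-Eb1 and Ciita, the master regulator of class II genes, had log2 fold changes of 1.61 and 1.70 in NFKO against control and 0.81 and 0.53 in DKO against AnkGKO, with unadjusted p-values of 0.0129 and 0.00226 in the first arm and 0.212 and 0.347 in the second. Nlrc5, the regulator of class I genes, went the other way, at -0.45 over both arms (unadjusted p = 0.0191). Among microglia markers, Ctss, cathepsin S, was the one at an unadjusted p under 0.05 over both arms (0.34), at 84.7 to 118 CPM in the intact and 107 to 141 CPM in the targeted libraries. Of 20 such genes, 17 were above 0 in NFKO against control and 6 in DKO against AnkGKO, with medians of 0.16 and -0.083. In NFKO against control 5 were higher and 1 lower at an unadjusted p under 0.05 (4.48% and 3.22% of all genes). There 0 passed the adjusted threshold by edgeR. The sum of the 20 genes was 698 to 981 CPM in the intact and 752 to 970 CPM in the targeted libraries. Their part in the antigen presentation values was not tested.

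Interferon response genes lay on opposite sides of 0 in the 2 arms. Of 22 genes 21 were above 0 in NFKO against control, with a median of 0.55. At an unadjusted p under 0.05, 13 were higher (4.48% of all genes were). In DKO against AnkGKO 3 were above 0, with a median of -0.35 and 7 lower at an unadjusted p under 0.05 (4.47% of all genes). Over both arms the median was 0.081, 15 were above 0, and Bst2 (0.35) and the proteasome subunit gene Psmb8 (0.40) had an unadjusted p under 0.05. The difference between the arms was negative for all 22 and had an unadjusted p under 0.05 for 13 (5.63% of all genes in this direction), and it passed the adjusted threshold for Ifit3, an interferon-induced RNA-binding protein (0.86 against -0.75). Bst2, which tethers budding virus to cells, was called in NFKO against control (1.05, edgeR Benjamini-Hochberg adjusted p = 0.0426) and had -0.34 in DKO against AnkGKO.

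Activated microglia genes had a median of -0.033 over 18 genes, made of 0.087 in NFKO against control and -0.14 in DKO against AnkGKO. At an unadjusted p under 0.05, 5 were higher in NFKO against control (4.48% of all genes). In DKO against AnkGKO 4 were lower at that p (4.47%). Over both arms Spp1 and Cybb were higher and Gpnmb and Ccl3 lower at an unadjusted p under 0.05. Spp1, osteopontin, was at 110 to 178 CPM in the intact and 167 to 209 CPM in the targeted libraries, and Cybb, of the phagocyte oxidase, at 1.25 to 3.40 CPM and 2.15 to 5.49 CPM. Reactive astrocyte genes had a median of 0.098, with 16 of 18 above 0, while Gfap, the astrocyte filament protein, had -0.28 (unadjusted p = 0.0379) and ranged from 1398 to 3054 CPM. Of 16 central myelin genes 10 were above 0, with a median of 0.026 and none at an unadjusted p under 0.05.

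**Figure D5:**
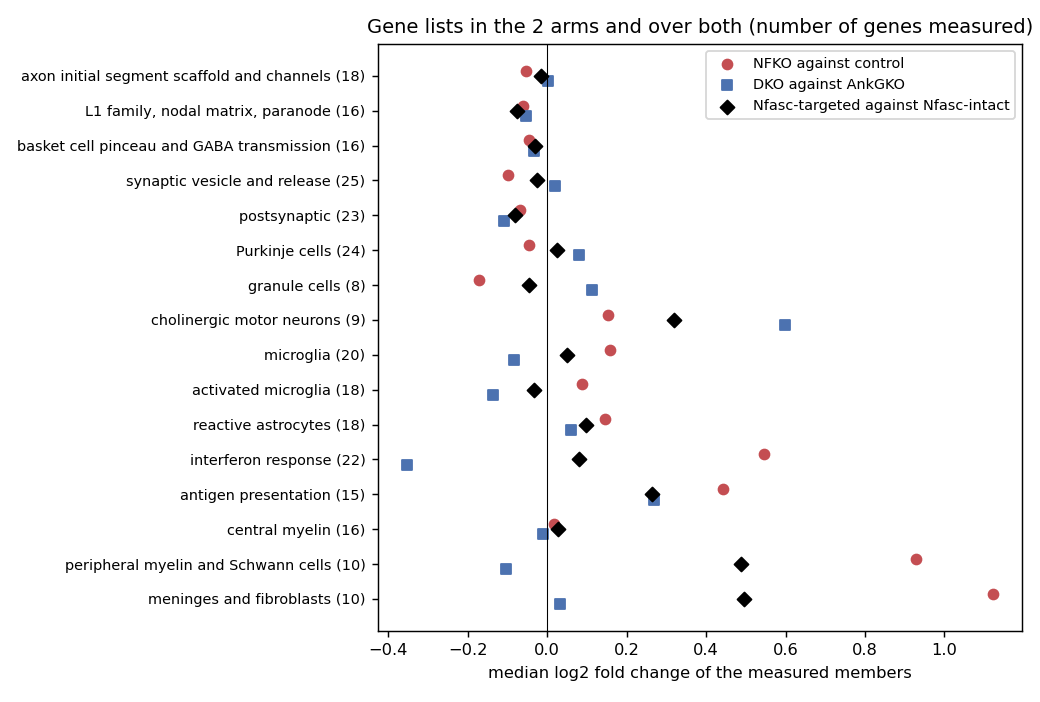
Median log2 fold change of 16 gene lists (horizontal axis) in NFKO against control (red circles), DKO against AnkGKO (blue squares) and over both arms (black diamonds), with the number of genes measured beside each name. Postsynaptic genes lie below 0 and antigen presentation and motor neuron genes above 0 in both arms, while interferon response genes lie at 0.55 in one arm and -0.35 in the other.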

How the data were processed

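Polyadenylated RNA was sequenced from 11 libraries, grouped by their genotype labels, and replicates are separate biological samples by the labels. Libraries were made with a strand-specific kit. By the submitters' processing notes and the study's methods, reads were trimmed with Trimmomatic 0.39 and aligned with STAR 2.7.11a to GRCm39, and the authors deposited raw counts of reads per gene. The strand setting of the counting is not given in the sources used here. The 5 summary lines were dropped (reads with no gene 9.23 to 10.4% and not uniquely aligned 32.5 to 34.3% of the table), and a second table, the same genes divided by DESeq2 size factors, was not used. Genes with at least 10 counts in total were tested with edgeR 4.0.16 in R 4.3.3 (TMM, robust quasi-likelihood fit of the 4 genotypes, Benjamini-Hochberg adjustment over all 17557 genes), and the steps were tested on simulated data. Calls needed an adjusted p under 0.05 and a log2 fold change of 0.6 or more in either direction. Intervals are 95%. p-values measure the spread between these samples.

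Named genes were Nfasc and Ank3, up to 10 called genes in each direction, up to 8 in each direction with an unadjusted p under 0.05 in both arms, and list members called, with an unadjusted p under 0.05 or best known in their list. Genes past the adjusted p alone, those called in opposite directions and those named by position were chosen after their values were seen. The members and gene lists were chosen with earlier results of these data known. Positions came from GENCODE vM39 on GRCm39, in which 18294 symbols matched by name, 2231 as synonyms and 2084 not at all. Shared sequence is the percent of a gene's 100-base transcript words found in another gene. Promoter sequences came from RefSeq (GRCm38.p6). They were sought for the 6 genes past the adjusted p that were higher at an unadjusted p under 0.05 in both arms. RefSeq held 3 of the 6, and Ctse, Adam11 and Chi3l1 had no entry there.

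Deviations from the group mean were correlated between control and NFKO libraries of the same number (r of 0.26 to 0.57 over 3 pairs, -0.43 to -0.086 over the 6 others). These r values depend on each other, because deviations within a group sum to 0. The labels give no source for a pairing. Control replicate 1 and NFKO replicate 1 were also the libraries highest in Pcp2. Whether tissue content or a pairing of mice gave the correlation was not tested. Over all 15 same-numbered pairs r ran from -0.47 to 0.57, with 7 over 0.1, and no comparison was paired in the main fit. Alternatives were DESeq2 1.42.0 with a local fit, edgeR with the DESeq2 size factors, filterByExpr, no filter, 2 plain groups, an additive model, the replicate number as a block, Xist or granule cell genes as a covariate, omission of the 4 libraries over 200 CPM of granule cell genes, and omission of each library in turn. Omission of control replicate 1 with DKO replicate 1, and of genes near the targeted loci and on chromosome 17, was chosen after seeing the data.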

Additional observations from a re-analysis of the deposited data

Results flagged for a closer look

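Nfasc was at 953 CPM in AnkGKO replicate 2, far from the other 4 Nfasc-intact libraries, the next being at 718 CPM. Among 64 gene groups of 5 or 6 libraries checked for such a library (Dixon's test, which flags about 1 in 20 groups by chance), 8 others had one. In the intact libraries these were Lyrm7 at 4.48 CPM and Wdfy1 at 47.5 CPM in AnkGKO replicate 1, Gdf9 at 0.999 CPM and Pdgfb at 17.1 CPM in AnkGKO replicate 2, and AU021034 at 3.42 CPM and Ccdc146 at 1.33 CPM in control replicate 2. In the targeted libraries they were Ly86 at 9.85 CPM in DKO replicate 1 and Gm10714 at 0.289 CPM in NFKO replicate 2.

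The effect of the Nfasc genotype differed between the arms for 11 of the 18 called genes, tested as the log2 fold change of DKO against AnkGKO minus that of NFKO against control. It was larger with Ank3 deleted for Ctse (2.20) and Crb1 (2.30). It was lower with Ank3 deleted for Lyrm7 (-2.21), Hddc3 (-1.88) and AA465934 (-3.88), which were higher in NFKO alone, and for Cwc22 (-2.46) and Mcm6 (-2.82), which were high in AnkGKO alone. It was positive for Tpm3 (1.66), Wdfy1 (2.20), Pkmyt1 (1.73) and Rps2 (2.30), which were lower in NFKO alone. The Benjamini-Hochberg adjusted p-values of edgeR ran from 3.79e-06 for Cwc22 to 0.0282 for AA465934.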

How the results depend on the processing

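The averaged contrast called 18 genes, 17 with DESeq2's size factors, with edgeR's filter or with no filter, and 15 with the granule cell covariate, of which 14 were shared. It called 59 with DESeq2, 0 as 2 plain groups, 0 with the additive model, 3 without the 4 libraries over 200 CPM of granule cell genes (which leaves 1 control and 1 NFKO library), 7 without control replicate 1 and DKO replicate 1, and 4 (without DKO replicate 3) to 23 (without NFKO replicate 2) without 1 library. The Xist covariate gave 16, of which 10 were shared. Among the calls it ended were those of Uts2, Adam11 and Tox3, while Ctse stayed called. NFKO against control called 64, but 159 with DESeq2, 31 with the Xist covariate, 3 without the granule-rich libraries (1 library against 1, with the spread taken from AnkGKO and DKO, so this says nothing about stability), 42 without genes near Nfasc or Ank3 or on chromosome 17, and 40 to 71 without 1 library. DKO against AnkGKO called 30, but 99, 13 and 11 under the first 3 of these settings and 12 to 40 without 1 library. The difference between the arms called 93, but 318, 20 and 6 under the same 3, 57 without control replicate 1 and DKO replicate 1, and 52 to 102 without 1 library. Genes moving the same way in both arms numbered 39, but 70 with DESeq2, 8 with the Xist covariate and 25 to 68 without 1 library. Genes moving in opposite directions numbered 205, but 321 with the Xist covariate, 76 without the granule-rich libraries, 135 without control replicate 1 and DKO replicate 1, and 139 to 284 without 1 library. The cause was not tested, though leaving libraries out also leaves fewer to estimate the spread.

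Nfasc passed the adjusted threshold with DESeq2 (-0.29). Its log2 fold change ran from -0.39 without AnkGKO replicate 1 to -0.19 without AnkGKO replicate 2. The first of these leaves AnkGKO only its replicate 2, the library flagged at 953 CPM. Ank3 changed sign as 2 plain groups (-0.030) and without AnkGKO replicate 1, and ran from -0.049 to 0.13 without 1 library. Of the 29 genes past the adjusted p, 0 stayed past it in every setting, since the plain and additive fits passed none.

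A block for the replicate number left 9 called genes in the averaged contrast. NFKO against control, where libraries of the same number were correlated, then called 55, DKO against AnkGKO 30 and the difference between the arms 75. Among named genes in single arms, the block ended the calls of Apoa2 in both arms and of Uts2 in DKO against AnkGKO. Fits without 1 AnkGKO library assume that the other varies like the rest. AnkGKO had 2 libraries, and values near 0.06 CPM rest on about 3 counts.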

Other observations

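Lists for other tissues and states gave these values, with no gene past the adjusted threshold over both arms. Of 10 meningeal and fibroblast genes, all were above 0 over both arms with a median log2 fold change of 0.49, made of 1.12 in NFKO against control and 0.032 in DKO against AnkGKO, and their sum was 785 to 2087 CPM in the intact and 920 to 3869 CPM in the targeted libraries. All 10 skeletal muscle genes were above 0 in both arms (median 3.67 over both), none with an unadjusted p under 0.05. The muscle values came from few libraries. Acta1, skeletal muscle actin, was at 115 CPM in NFKO replicate 2, 44.8 CPM in DKO replicate 2 and 19.1 CPM or less in the other 9 libraries.

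Endothelial genes had a median of -0.059 over both arms, 0.17 in NFKO against control and -0.24 in DKO against AnkGKO, where all 10 were below 0. Kdr, the VEGF receptor of endothelium, was at 25.0 and 34.2 CPM in AnkGKO and 11.9 to 14.8 CPM in DKO, and was called there (log2 fold change -1.11, edgeR Benjamini-Hochberg adjusted p = 0.0460), whereas it had 0.43 in NFKO against control. Of the 3 measured red blood cell genes, Beta-s, a beta globin, had an unadjusted p under 0.05 over both arms (0.41). It was at 345 to 399 CPM in NFKO and 172 to 208 CPM in control, and at 198 to 328 CPM in DKO and 248 and 311 CPM in AnkGKO. Medians over both arms were 0.12 for 8 choroid plexus genes, -0.062 for 12 immediate early genes, 0.044 for 12 caudal Hox genes, -0.072 for 7 genes of cerebellar interneurons and Bergmann glia, and -0.0074 for 14 axonal injury genes. In the last list Vip, vasoactive intestinal peptide, had 0.60 (unadjusted p = 0.00672), at 1.404 to 2.00 CPM in the intact and 1.74 to 4.34 CPM in the targeted libraries.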
